A study of Homo sapiens with 6 samples.

Results

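The genes described here are 40 that encode extracellular matrix proteins, the proteases that cut them, the inhibitors of those proteases, and enzymes that cross-link the matrix. They were listed by symbol, and each matched 1 Ensembl identifier among 78651 in the deposited tables. Of these members, 30 had enough counts to be tested, among 17625 tested genes in all. The samples were THP-1 cells, a human monocytic leukaemia line, in 2 stable forms. One form overexpressed PTX4 from a transduced construct (PTX4-OE, 3 libraries), and the other carried the empty vector (EV, 3 libraries). PTX4 encodes pentraxin 4, a secreted member of the family of C-reactive protein. The labels call the replicates biological, put all libraries in batch 1 and number them 1 to 3 in each group. Both forms grew in RPMI medium with fetal bovine serum, and the labels name no clone, no promoter of the construct and no agent that would turn the monocytic cells into macrophages. They do not say that replicates came from separate transductions, so p-values measure the spread between these libraries.

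Matrix metalloproteases (MMPs) are zinc enzymes that cut collagens and other matrix proteins outside the cell, and TIMPs bind and block them. ADAM proteases sit in the membrane and release the outer parts of other membrane proteins, while the urokinase PLAU, held at the surface by its receptor PLAUR, activates plasminogen. Monocytes use these systems to cross tissue, and they also deposit some matrix proteins themselves.

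None of the 30 tested members differed between PTX4-OE and EV past an adjusted p of 0.05. That held in edgeR's quasi-likelihood test on all libraries and in the same test with libraries of equal replicate number treated as pairs. Over all genes, 0.00567% (1 of 17625, PTX4 itself) passed without pairs and 0.267% (47) with them. At an unadjusted p under 0.05, 1 member passed without pairs, beside 0.743% of all genes. With pairs, 7 of 30 members passed that looser limit, beside 8.79% of all genes. The members were chosen with earlier results of these data known, so this difference in share was not tested. Both fits had 0 members passing the adjusted limit in the higher direction (0.0284% of all genes with pairs) and 0 in the lower (0.238%). The 7 were FBN1 and HSPG2 with positive log2 fold changes, beside 4.36% of all genes, and PLAUR, EMILIN2, TGFBI, TIMP3 and PLAU with negative ones, beside 4.43%. The smallest adjusted p of a member was 0.9999 without pairs and 0.1005 with them.

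The members' fold changes were small and lay on both sides of 0. The median log2 fold change (PTX4-OE over EV) of the 30 was -0.029 in both fits, beside 0.0077 without pairs and 0.0053 with them over all tested genes. Without pairs, 14 members had a positive and 16 a negative value, and 53% of all genes were positive. The 95% interval excluded a 2-fold change, up or down, for 25 members, beside 75.5% of all genes, and for 28 with pairs, beside 86.2%. It lay within 1.5-fold for 15 members without pairs (52.6% of all genes) and for 22 with pairs (71.3%). The widest interval without pairs, that of MMP25, ran from -2.00 to 1.68 on the log2 scale. In CPM (counts scaled to normalised library size), 3 members were higher in PTX4-OE in all 3 pairs (ADAM8, TIMP1, FBN1), beside 16.4% of all genes. A further 8 were lower in all 3 (ADAM9, TIMP2, TIMP3, PLAU, PLAUR, VCAN, TGFBI, EMILIN2), beside 14.1%.

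**Figure D1:**
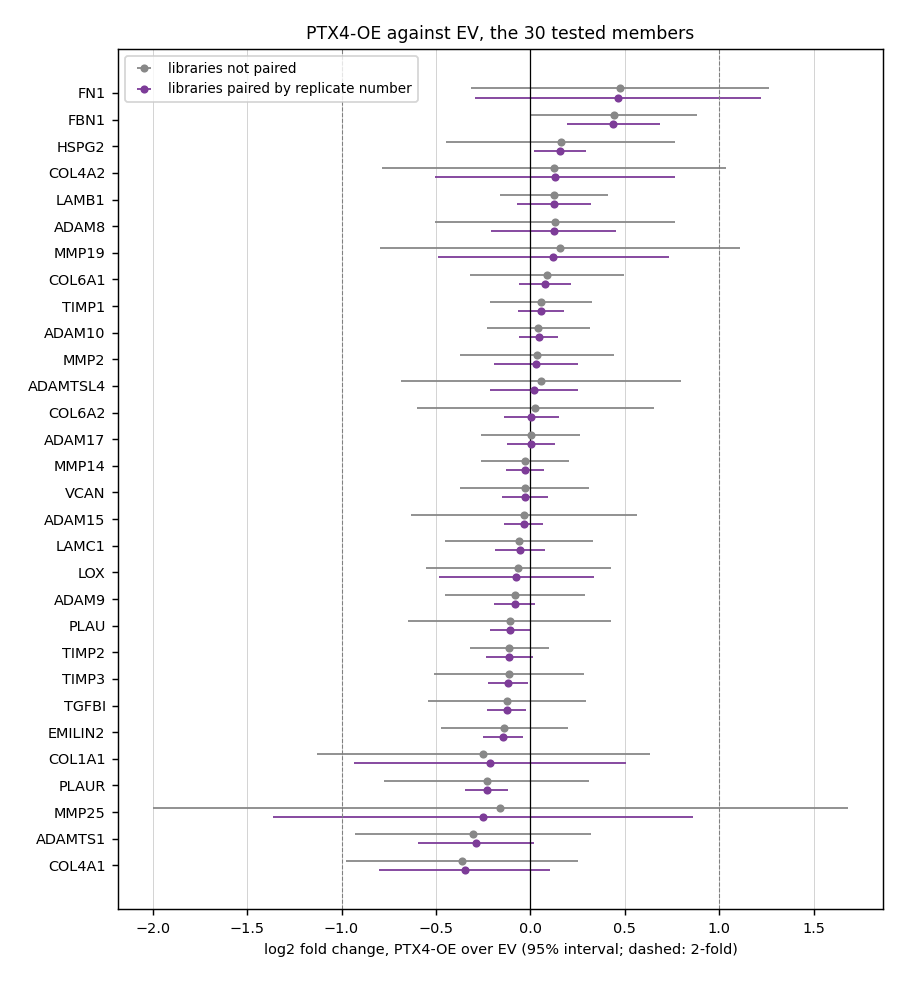
Log2 fold change of PTX4-OE over EV for the 30 tested members, for libraries not paired and for libraries paired by replicate number. The 95% intervals were derived from edgeR's F statistic. The intervals of 25 members without pairs and of 28 with pairs lie between the dashed lines, which mark 2-fold in either direction.

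The libraries held 29670641 to 37718207 expected counts. PTX4 itself was given 24633, 14398 and 15782 counts in the PTX4-OE libraries, against 0, 3 and 4 in the EV libraries. The mitochondrial share of counts was 2.79% for PTX4-OE replicate 1, and elsewhere it ran between 4.75% and 5.91%. Of 12 monocytic markers 11 were tested, and their summed level was 640 to 756 TPM (the authors' length-corrected level, scaled to the library) in PTX4-OE and 682 to 747 TPM in EV. With pairs, 3 of them fell (MNDA, MPO and CSF1R), beside 0.238% of all genes, and 0 rose. Without pairs 0 passed in either direction, beside 0.00567% of all genes higher and 0% lower. At an unadjusted p under 0.05 without pairs, 2 markers were lower, beside 0.505% of all genes. Whether this bears on the members was not tested. Markers of fibroblasts, endothelium, epithelium, and T and B cells summed to 0.12 to 1.32 TPM per list and library. Differences in a bulk library cannot tell fewer cells of a kind from less RNA per cell.

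Together the 40 members made up 610, 564 and 625 TPM in PTX4-OE replicates 1 to 3, against 631, 580 and 638 TPM in EV replicates 1 to 3. The groups overlapped. The largest share came from the TIMP inhibitors with 149 ± 12.1 TPM in PTX4-OE and 147 ± 9.93 TPM in EV (SD, n = 3 each), and from PLAU with PLAUR at 144 ± 17.2 TPM in PTX4-OE and 157 ± 18.1 TPM in EV. Structural matrix proteins summed to 127 ± 17.96 TPM in PTX4-OE and 133 ± 18.2 TPM in EV, and ADAM and ADAMTS genes to 116 ± 12.1 TPM in PTX4-OE and 115 ± 15.3 TPM in EV. The 11 MMPs gave 63.6 ± 5.52 TPM in PTX4-OE and 63.5 ± 5.75 TPM in EV, nearly all of it from 1 gene. The cross-linking oxidases LOX and LOXL2 together were at 0.79 ± 0.11 TPM in PTX4-OE and 0.78 ± 0.076 TPM in EV.

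**Figure D2:**
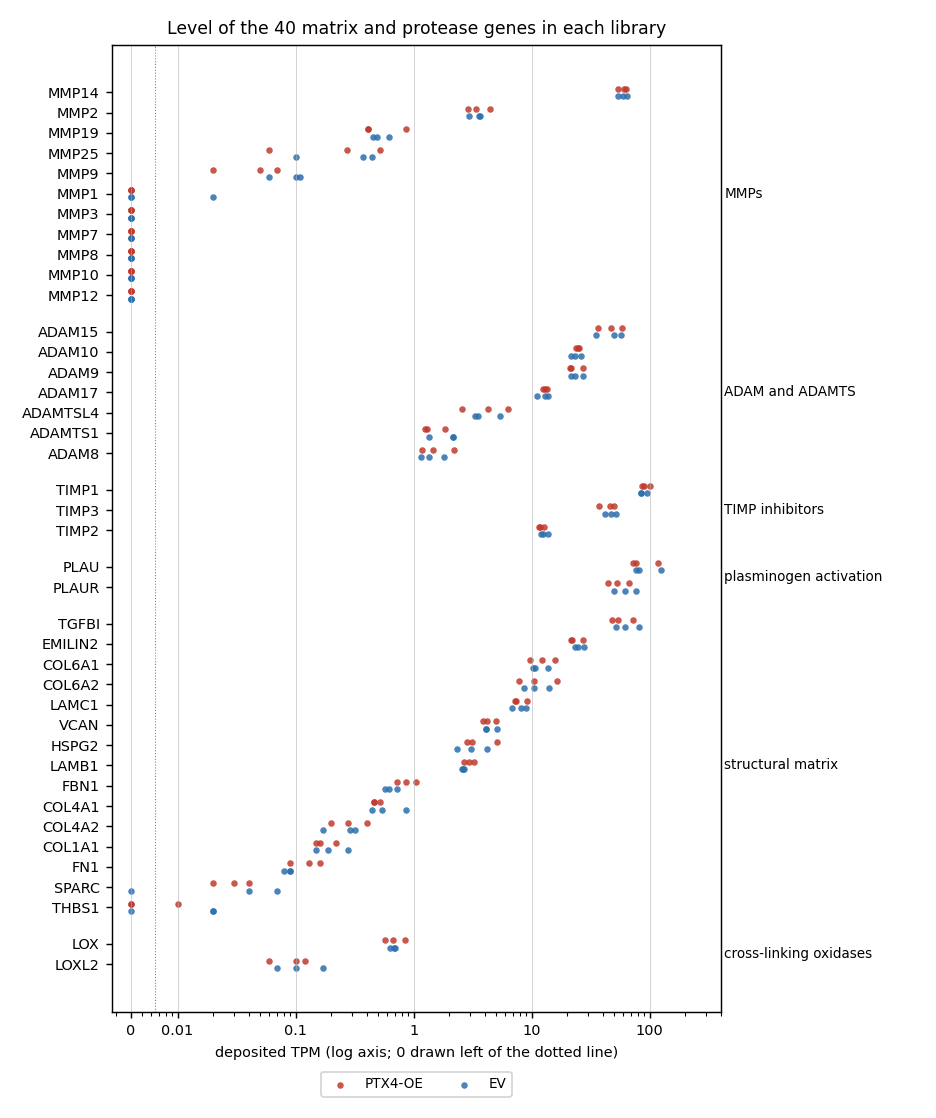
Deposited TPM of each of the 40 members in each library on a log axis, with PTX4-OE drawn above EV and values of 0 left of the dotted line. MMP3, MMP7, MMP8, MMP10 and MMP12 are at 0 in every library, while TIMP1 lies between 84.1 and 101 TPM and PLAU between 71.9 and 125 TPM.

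Among the MMPs, transcripts of the membrane-anchored collagenase MMP14 (ENSG00000157227.14, chromosome 14, 22836560 to 22849041, plus strand, GRCh38) were by far the most abundant. MMP14 had 60.2, 54.2 and 62.9 TPM in PTX4-OE replicates 1 to 3, against 59.6, 53.9 and 64.1 TPM in EV replicates 1 to 3. The groups overlapped throughout, and the log2 fold change was -0.029 (SE 0.099, 95% interval -0.26 to 0.20). MMP14 lies on the cell surface, where it cuts collagen and activates the secreted gelatinase MMP2. MMP2 averaged 3.58 ± 0.79 TPM in PTX4-OE and 3.39 ± 0.37 TPM in EV (SD, n = 3 each), with a log2 fold change of 0.036 (SE 0.17). MMP19, a soluble MMP, was at 0.56 ± 0.26 TPM in PTX4-OE and 0.52 ± 0.089 TPM in EV, and shares 17.6% of its exon bases with TMEM198B on the opposite strand. MMP25, a membrane-anchored MMP of leukocytes, was at 0.28 ± 0.23 TPM in PTX4-OE and 0.30 ± 0.18 TPM in EV. The exons of MMP25 share 30.6% of their bases with MMP25-AS1 on the opposite strand. Counts of MMP19 and MMP25 were fractional in all 6 libraries and the counting is not stated to use strand, so both levels are uncertain.

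The other 7 MMPs did not pass the filter on low counts. No read was counted for the stromelysins MMP3 and MMP10, the matrilysin MMP7, the neutrophil collagenase MMP8 or the macrophage elastase MMP12 in any library. A count of 0 allows up to 3 counts, or 0.0795 to 0.0965 CPM in PTX4-OE libraries and 0.0918 to 0.101 CPM in EV libraries, for counting error only. The interstitial collagenase MMP1 had 0 counts in every PTX4-OE library, against 0, 0 and 1 in EV replicates 1 to 3. These 6 silent or nearly silent genes are all on chromosome 11, between 102520508, the lowest coordinate of MMP7, and 102874982, the highest of MMP12. MMP9, the gelatinase secreted by activated monocytes and neutrophils, is on chromosome 20 and had 3, 1 and 4 counts in PTX4-OE replicates 1 to 3, against 5, 3 and 6 in EV replicates 1 to 3. Values that low allow no fold.

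The promoters of undetected and abundant MMPs can be set beside each other as sequence. RefSeq windows (GRCh38.p14) from 250 bases before to 50 bases after the start were available for 27 members, 30 windows in all. In each sequence the capitals mark matches, on either strand, to the AP-1 motif TGANTCA, the TATA box TATAAA or the GC box GGGCGG. MMP7 and MMP10 are shown as genes with no counts, MMP14 as the MMP with the most, each 5′ to 3′ along its own strand.
MMP7, chr11:102530698-102530997, minus strand: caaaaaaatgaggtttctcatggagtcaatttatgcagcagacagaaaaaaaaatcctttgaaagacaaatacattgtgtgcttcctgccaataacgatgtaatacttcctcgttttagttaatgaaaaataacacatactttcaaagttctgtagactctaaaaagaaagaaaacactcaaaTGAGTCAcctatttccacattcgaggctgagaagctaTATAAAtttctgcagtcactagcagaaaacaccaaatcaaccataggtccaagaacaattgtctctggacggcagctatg
MMP10, chr11:102780579-102780878, minus strand: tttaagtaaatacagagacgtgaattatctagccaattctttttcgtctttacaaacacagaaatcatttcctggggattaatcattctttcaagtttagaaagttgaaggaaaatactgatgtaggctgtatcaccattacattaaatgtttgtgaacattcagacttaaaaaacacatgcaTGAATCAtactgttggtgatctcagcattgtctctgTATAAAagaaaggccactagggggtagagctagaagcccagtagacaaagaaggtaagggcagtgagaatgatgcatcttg
MMP14, chr14:22836335-22836634, plus strand: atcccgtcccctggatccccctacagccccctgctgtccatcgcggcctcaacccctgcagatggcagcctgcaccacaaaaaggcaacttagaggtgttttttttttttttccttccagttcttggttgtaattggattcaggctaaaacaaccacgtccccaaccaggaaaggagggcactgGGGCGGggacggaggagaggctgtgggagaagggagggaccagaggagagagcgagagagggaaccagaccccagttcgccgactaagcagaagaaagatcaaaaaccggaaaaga
MMP7 and MMP10 both hold an AP-1 match that starts at position -67 from the start site and a TATA box match at -30 and -31. MMP8, the other MMP with no counts and a window, has no AP-1 match, and its TATA box match is at -110. MMP14 has neither in this window, and has a GC box match at -66. AP-1 letters were found in 4 of the 30 member windows (EMILIN2, MMP7, MMP10, PLAUR) and in 7.71% of 35116 windows of all genes. TATAAA was found in 4 (COL6A2, MMP7, MMP8, MMP10), against 11.5% of all windows, and GGGCGG in 21, against 45.0%. A match describes letters and shows no binding.

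The ADAM members were expressed at moderate levels that differed little between the groups. ADAM15, a membrane protease that also binds integrins, had 58.8, 47.2 and 36.2 TPM in PTX4-OE replicates 1 to 3, against 56.9, 50.3 and 35.4 TPM in EV replicates 1 to 3. In both groups replicate 1 was highest and replicate 3 lowest, and the log2 fold change was -0.035 (SE 0.25, or 0.049 with pairs). ADAM10, which sheds Notch and many adhesion molecules, had 23.8, 24.9 and 25.4 TPM in PTX4-OE replicates 1 to 3, against 26.2, 23.5 and 21.6 TPM in EV replicates 1 to 3. ADAM17, the protease that releases TNF from the membrane, had 13.5, 12.6 and 13.1 TPM in PTX4-OE, against 13.9, 11.2 and 12.9 TPM in EV. The groups overlapped for both, and their log2 fold changes of 0.043 (SE 0.12) and 0.0017 (SE 0.11) were within the error. ADAM9, a sheddase with a broad range of substrates, had 27.2, 21.7 and 21.0 TPM in PTX4-OE, against 27.0, 23.5 and 21.7 TPM in EV. Its log2 fold change was -0.081 (SE 0.16). Reads of ADAM17 are uncertain in part, since 10.3% of its exon bases also belong to IAH1 on the opposite strand and its counts were fractional.

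Lower in the family, ADAM8, an ADAM of leukocytes, averaged 1.62 ± 0.54 TPM in PTX4-OE and 1.44 ± 0.34 TPM in EV (SD, n = 3 each). ADAMTS1, a secreted protease that cuts aggrecan and versican, averaged 1.47 ± 0.34 TPM in PTX4-OE and 1.89 ± 0.47 TPM in EV, with a log2 fold change of -0.30 (SE 0.27). ADAMTSL4, an ADAMTS-like protein without a protease domain that binds fibrillin, averaged 4.37 ± 1.88 TPM in PTX4-OE and 4.07 ± 1.14 TPM in EV. Its exons share bases with ADAMTSL4-AS1 and MCL1 on the opposite strand. None of the 3 passed the test in either fit. Without pairs the ADAMTS1 difference was slightly larger than its SE, and the groups overlapped. With pairs its log2 fold change was -0.29 (SE 0.14, edgeR adjusted p = 0.598).

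All 3 TIMP inhibitors were detected, and TIMP1 was among the most abundant members. TIMP1 (ENSG00000102265.12, chromosome X, 47582408 to 47586789, plus strand) had 101, 86.4 and 89.9 TPM in PTX4-OE replicates 1 to 3, against 94.0, 84.1 and 84.9 TPM in EV replicates 1 to 3. The groups overlapped, with a log2 fold change of 0.057 (SE 0.11, 95% interval -0.21 to 0.33). TIMP3, the inhibitor that stays bound to the matrix and also blocks ADAM17, had 50.3, 45.9 and 37.2 TPM in PTX4-OE, against 52.1, 46.9 and 41.7 TPM in EV. Each PTX4-OE library was below the EV library of its number, and the ranges overlapped. With pairs the log2 fold change of TIMP3 was -0.12 (SE 0.049), and edgeR's adjusted p was 0.494. TIMP1 lies inside SYN1 and TIMP3 inside SYN3, both on the opposite strand, with no shared exon bases in GENCODE release 44.

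TIMP2, which both blocks MMP14 and helps it to activate MMP2, was the single member whose groups did not overlap in normalised CPM. It had 30.1, 31.3 and 31.3 CPM in PTX4-OE replicates 1 to 3, against 33.5, 32.4 and 34.2 CPM in EV replicates 1 to 3. Every PTX4-OE library was below every EV library, a pattern shown in this direction by 2.05% of all tested genes, and no member showed the opposite one (2.08%). The log2 fold change was -0.11 (SE 0.088, edgeR adjusted p = 0.9999), and with pairs -0.11 (SE 0.058, adjusted p = 0.622). In TPM the groups did overlap, at 11.5, 11.9 and 12.7 in PTX4-OE and 12.5, 11.9 and 13.7 in EV.

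The GC box letters of the TIMP1 window, shown because TIMP1 is the most abundant inhibitor, are on the opposite strand and appear as CCGCCC.
TIMP1, chrX:47582186-47582485, plus strand: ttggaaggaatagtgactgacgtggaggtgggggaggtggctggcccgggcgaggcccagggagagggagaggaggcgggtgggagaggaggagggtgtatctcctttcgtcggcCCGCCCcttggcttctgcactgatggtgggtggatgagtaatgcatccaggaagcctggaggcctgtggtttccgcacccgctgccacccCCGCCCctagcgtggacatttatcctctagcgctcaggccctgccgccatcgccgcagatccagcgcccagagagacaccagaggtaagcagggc
These matches start at positions -135 and -45, and neither an AP-1 nor a TATA box match was found in the window.

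Urokinase and its receptor were abundant, and both had lower CPM in PTX4-OE than in EV in each pair without passing the test over all genes. PLAUR (ENSG00000011422.12, chromosome 19, 43646095 to 43670547, minus strand), the membrane receptor that holds urokinase, had 56.6, 44.1 and 35.0 CPM in PTX4-OE replicates 1 to 3. EV replicates 1 to 3 had 65.7, 53.4 and 40.2 CPM. Replicate 1 was highest and replicate 3 lowest in both groups, and the groups overlapped. The log2 difference was -0.22, -0.28 and -0.20 in pairs 1, 2 and 3. Without pairs the log2 fold change was -0.23 (SE 0.23, edgeR adjusted p = 0.9999). With pairs it was -0.23 (SE 0.053, 95% interval -0.34 to -0.12, adjusted p = 0.1005), the smallest p of any member. Over the alternatives run, the adjusted p of PLAUR ran from 0.0287 to 1.0. It passed in a single alternative, with pairs and without the pair of replicate 3, where the log2 fold change was -0.26.

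The promoter window of PLAUR, shown because PLAUR had that smallest p, holds an AP-1 match at position -186.
PLAUR, chr19:43670120-43670419, minus strand: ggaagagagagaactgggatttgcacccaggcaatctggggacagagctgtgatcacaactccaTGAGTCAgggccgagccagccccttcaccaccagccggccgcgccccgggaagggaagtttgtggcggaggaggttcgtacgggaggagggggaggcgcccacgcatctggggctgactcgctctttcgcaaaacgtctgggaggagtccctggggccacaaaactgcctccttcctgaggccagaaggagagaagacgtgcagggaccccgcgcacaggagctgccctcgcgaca
No TATA box or GC box match was found in it.

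PLAU, the protease itself, had 71.9, 77.01 and 118 TPM in PTX4-OE replicates 1 to 3, against 80.7, 76.0 and 125 TPM in EV replicates 1 to 3. Replicate 3 stood above the others in both groups, and in TPM pair 2 was slightly higher in PTX4-OE. In CPM the log2 difference was -0.19, -0.016 and -0.12 in pairs 1, 2 and 3, so pair 2 hardly differed. The log2 fold change was -0.11 (SE 0.23), and with pairs -0.11 (SE 0.050, edgeR adjusted p = 0.554). The counts of PLAU were fractional in every library, and 31.0% of its exon bases are shared with C10orf55 on the opposite strand, a gene given 796 counts over all 6 libraries. PLAU had 3707 to 7012 counts per library.

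**Figure D3:**
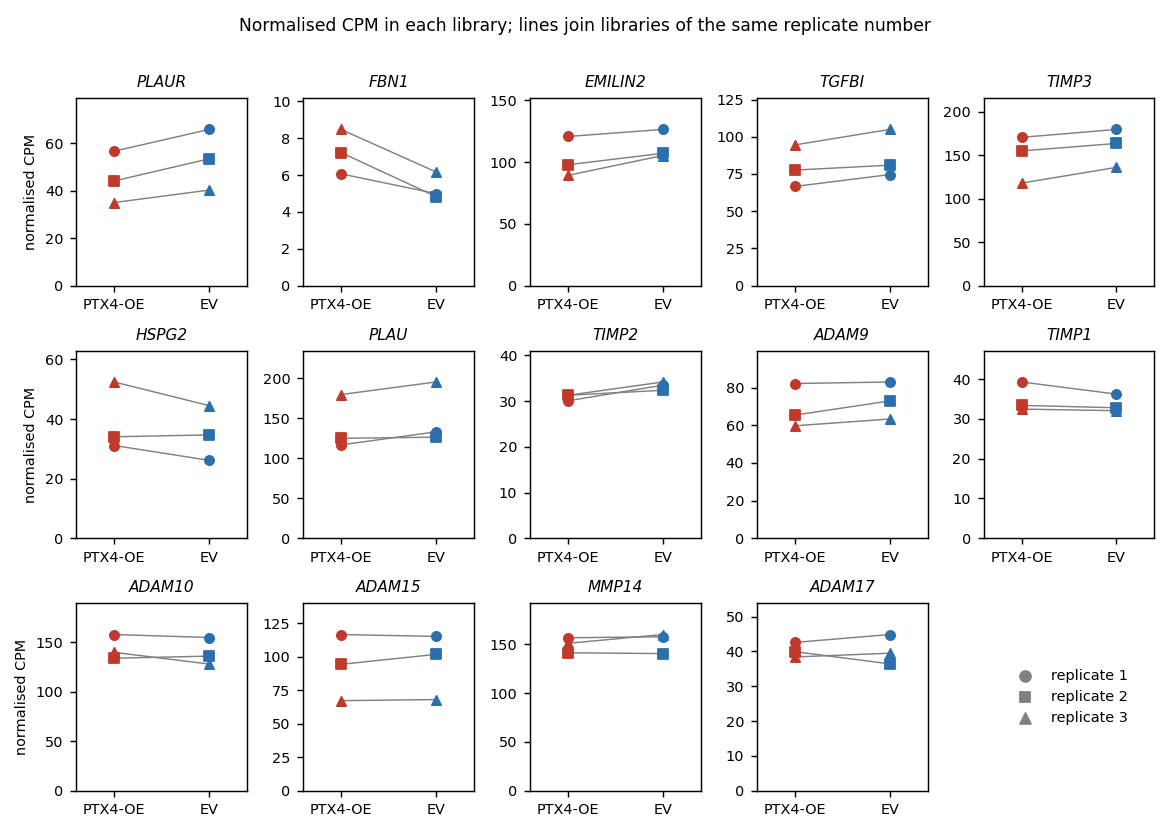
Normalised CPM of 14 members in each library, PTX4-OE left of EV, with lines joining libraries of the same replicate number and axes that start at 0. PLAUR lies lower in PTX4-OE within each pair, while its libraries range from 35.0 to 65.7 CPM.

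The structural proteins were led by TGFBI and EMILIN2. TGFBI, a secreted protein that links collagen and integrins, had 47.7, 54.4 and 71.9 TPM in PTX4-OE replicates 1 to 3, against 51.6, 61.4 and 81.5 TPM in EV replicates 1 to 3. Each PTX4-OE library was below its numbered EV library, yet the ranges overlapped. Its log2 fold change was -0.13 (SE 0.18), and with pairs -0.12 (SE 0.049, edgeR adjusted p = 0.456). EMILIN2, an elastic fibre-associated glycoprotein, had 27.1, 22.1 and 21.5 TPM in PTX4-OE, against 27.9, 23.4 and 24.6 TPM in EV. The groups overlapped again. With pairs its log2 fold change was -0.14 (SE 0.050, adjusted p = 0.365), the third smallest p of the members.

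FBN1 and HSPG2 were the members with positive log2 fold changes at an unadjusted p under 0.05 with pairs. FBN1 (ENSG00000166147.16, chromosome 15, 48408313 to 48645721, minus strand) encodes fibrillin-1, the core of microfibrils that also store TGF-beta. It had 6.07, 7.22 and 8.48 CPM in PTX4-OE replicates 1 to 3, against 5.00, 4.84 and 6.17 CPM in EV replicates 1 to 3. Only PTX4-OE replicate 1 lay within the EV range. The log2 difference was 0.28, 0.57 and 0.45 in pairs 1, 2 and 3. Without pairs the log2 fold change was 0.44 (SE 0.19, 95% interval 0.0014 to 0.88), with an unadjusted p of 0.04945 and an edgeR adjusted p of 0.9999. With pairs it was 0.44 (SE 0.12, adjusted p = 0.189), and over the alternatives run the adjusted p was 0.107 to 1.0. In TPM fibrillin-1 was a minor transcript, at 0.88 ± 0.16 TPM in PTX4-OE and 0.64 ± 0.076 TPM in EV (SD, n = 3 each).

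HSPG2 encodes perlecan, the large heparan sulphate proteoglycan of basement membranes. It had 31.1, 34.1 and 52.4 CPM in PTX4-OE replicates 1 to 3, against 26.2, 34.7 and 44.5 CPM in EV replicates 1 to 3. It was higher in pairs 1 and 3 and not in pair 2, with log2 differences of 0.25, -0.026 and 0.24. With pairs the log2 fold change was 0.16 (SE 0.064, edgeR adjusted p = 0.498). Counts of HSPG2 were fractional, and 11.7% of its exon bases are shared with LDLRAD2 on the opposite strand.

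Of the 5 collagen chains among the members, the collagen VI chains alone reached 10 TPM. COL6A1 averaged 12.6 ± 3.09 TPM in PTX4-OE and 11.6 ± 1.87 TPM in EV, and COL6A2 11.6 ± 4.31 TPM in PTX4-OE and 11.03 ± 2.79 TPM in EV (SD, n = 3 each). Both lie on the plus strand of chromosome 21, 93062 bases apart. Their log2 fold changes were 0.088 (SE 0.17) and 0.025 (SE 0.27). The basement membrane collagens COL4A1 and COL4A2, which face away from each other on chromosome 13 and whose promoter windows share 226 bases, were both under 1 TPM. COL4A1 was at 0.48 ± 0.035 TPM in PTX4-OE and 0.61 ± 0.22 TPM in EV, and COL4A2 at 0.29 ± 0.10 TPM in PTX4-OE and 0.26 ± 0.079 TPM in EV. COL1A1, the main chain of fibrillar collagen in connective tissue, was at 0.18 ± 0.038 TPM in PTX4-OE and 0.21 ± 0.067 TPM in EV. Of 8 fibroblast markers, COL1A2, COL3A1, DCN and TCF21 had no counts in any library, and LUM and THY1 were below the filter at 0.04 TPM or less. PDGFRA and PDGFRB were tested and did not pass, with log2 fold changes of 0.19 (SE 0.52) and 0.45 (SE 0.32). The 8 summed to 0.48 to 0.87 TPM in PTX4-OE and 0.45 to 0.59 TPM in EV, and their part in the collagen values was not tested.

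The laminin chains LAMC1 and LAMB1 averaged 7.91 ± 1.08 and 2.95 ± 0.31 TPM in PTX4-OE, against 8.02 ± 1.10 and 2.63 ± 0.060 TPM in EV. VCAN, the proteoglycan versican made by monocytes, averaged 4.34 ± 0.59 TPM in PTX4-OE and 4.42 ± 0.60 TPM in EV, with a log2 fold change of -0.029 (SE 0.14). Fibronectin (FN1) had the largest positive log2 fold change among the members, 0.47, but with an SE of 0.33 and only 16 to 35 counts per library. It was at 0.13 ± 0.035 TPM in PTX4-OE and 0.087 ± 0.0058 TPM in EV, with overlapping groups. SPARC, a collagen-binding glycoprotein, had 4, 2 and 2 counts in PTX4-OE replicates 1 to 3, against 3, 5 and 0 in EV replicates 1 to 3. Thrombospondin-1 (THBS1) had 0, 2 and 0 counts in PTX4-OE, against 3, 0 and 4 in EV. Both were below the filter on low counts.

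LOX and LOXL2 oxidise lysines so that collagen and elastin can cross-link. LOX averaged 0.70 ± 0.14 TPM in PTX4-OE and 0.67 ± 0.036 TPM in EV (SD, n = 3 each), with a log2 fold change of -0.064 (SE 0.21). LOXL2 had 10, 5 and 12 counts in PTX4-OE replicates 1 to 3, against 6, 8 and 15 in EV replicates 1 to 3. It was below the filter on low counts in the fits of all 6 libraries. Run without that filter, the fit without pairs gave a log2 fold change of -0.26 (SE 0.60).

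Many members differed between replicate numbers. In the fit with pairs, 18 of 30 members differed between libraries numbered 3 and those numbered 1, beside 54.6% of all genes. The members' share was 60%, close to that of all genes. Of these, 8 were higher in number 3 (beside 25.8% of all genes) and 10 were lower (28.8%). This comparison was added after the data were seen, rests on 2 libraries per number, and the labels do not say what a number shares. Collagen VI, named after its values were seen, shows the size. COL6A2 had 37.6 CPM in PTX4-OE and 33.3 CPM in EV under number 3, against 19.3 CPM in PTX4-OE and 21.4 CPM in EV under number 1 (log2 fold change 0.80, SE 0.084, edgeR adjusted p = 1.14e-06). The opposite direction was seen for ADAM15 (-0.78, SE 0.060) and PLAUR (-0.70, SE 0.065), while HSPG2 (0.76, SE 0.078), PLAU (0.59, SE 0.061) and TGFBI (0.50, SE 0.060) were higher in number 3. MMP14 was at -0.016 (SE 0.058) and TIMP2 at 0.044 (SE 0.071).

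**Figure D4:**
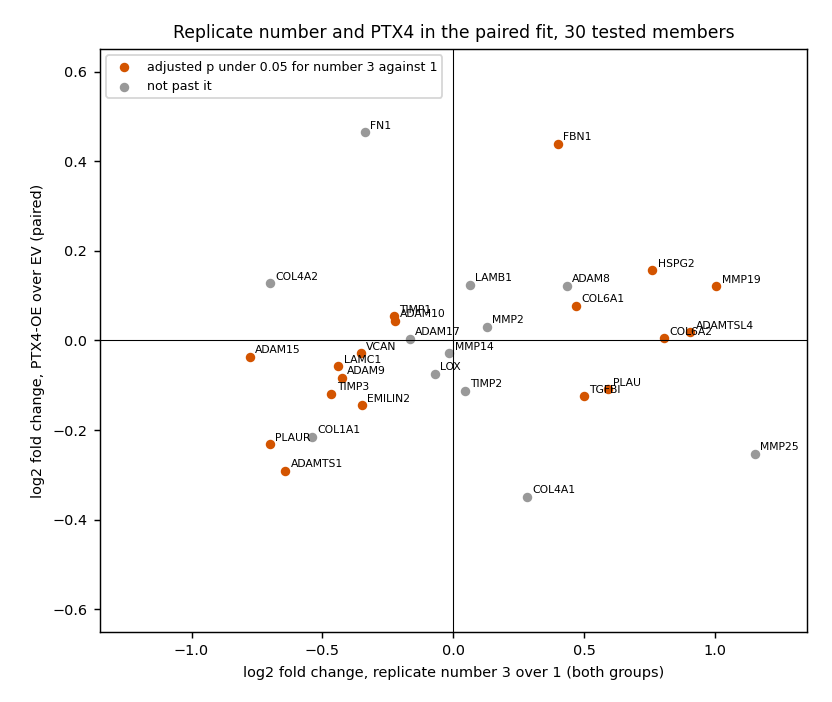
Log2 fold change of replicate number 3 over 1 (horizontal) and of PTX4-OE over EV (vertical), both from the fit with pairs, for the 30 tested members. The horizontal spread, from -0.78 for ADAM15 to 1.15 for MMP25, is wider than the vertical spread, which runs from -0.35 to 0.46. The value of MMP25 has an SE of 0.61 and did not pass (edgeR adjusted p = 0.126). The highest member that passed was MMP19, at 1.00 (SE 0.35).

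Other genes of the matrix system were followed on 5 lists of 157 genes, of which 112 were tested. Without pairs 0 passed edgeR's test in either direction, beside 0.00567% of all genes higher and 0% lower. At an unadjusted p under 0.05 without pairs, 1 was higher (0.238% of all genes) and 0 were lower (0.505%). With pairs 0 rose (0.0284% of all genes) and 1 fell (0.238%). At an unadjusted p under 0.05 with pairs, 9 were higher, beside 4.36% of all genes, and 10 were lower, beside 4.43%. The median log2 fold change was -0.00058 without pairs and -0.00045 with them.

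The gene that fell with pairs was SERPINB2, an inhibitor of urokinase, on the list of other protease inhibitors (12 of 18 tested, 1 lower, 11 not passed). SERPINB2 had 9.46, 9.85 and 4.58 CPM in PTX4-OE replicates 1 to 3, against 12.1, 13.9 and 9.13 CPM in EV replicates 1 to 3. The log2 fold change with pairs was -0.59 (SE 0.11, edgeR adjusted p = 0.0425), and without pairs -0.56 (SE 0.31, adjusted p = 0.9999). It did not pass with pairs once the pair of replicate 2 was left out, nor in DESeq2 with pairs. On the same list the cysteine protease inhibitors CST3 and CSTB averaged 245 ± 24.3 and 214 ± 15.1 TPM in PTX4-OE, against 274 ± 47.5 and 239 ± 32.1 TPM in EV. With pairs their log2 fold changes were -0.18 (SE 0.050) and -0.16 (SE 0.055), and that of SLPI, an inhibitor of neutrophil elastase, was -0.46 (SE 0.13). At an unadjusted p under 0.05 with pairs, 4 of the 12 were lower, beside 4.43% of all genes, and 1 was higher, beside 4.36%. The higher one, named after its values were seen, was SERPINE2, an inhibitor of thrombin and urokinase, with 0.14 (SE 0.060, edgeR adjusted p = 0.507). The list's median with pairs was -0.12, beside 0.0053 over all genes. The list was chosen with earlier results of these data known, so neither its counts nor its median was tested.

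No gene passed on the other 4 lists in either fit. Of 27 tested genes on the list of other matrix proteases, the granule proteases PRTN3 and ELANE were the most abundant. The list also holds HPSE, HYAL2 and HYAL3, which are not proteases. PRTN3 and ELANE stood at 1869 ± 732 and 1682 ± 188 TPM in PTX4-OE, against 1985 ± 811 and 1592 ± 190 TPM in EV. The TPM of these serine proteases of azurophil granules exceeded that of every MMP. The lysosomal cathepsins CTSZ and CTSD had log2 fold changes with pairs of -0.16 (SE 0.052) and -0.12 (SE 0.050). They were the 2 of 27 lower at an unadjusted p under 0.05 with pairs, beside 4.43% of all genes. The 1 higher, beside 4.36%, was ADAMTS7, named after its values were seen, with 0.45 (SE 0.21, edgeR adjusted p = 0.559). Of 34 tested structural genes, serglycin (SRGN), the proteoglycan of storage granules, stood at 1261 ± 108 TPM in PTX4-OE and 1349 ± 87.7 TPM in EV. COL9A2 followed with 122 ± 16.7 TPM in PTX4-OE and 121 ± 6.69 TPM in EV. THBS4, a thrombospondin, had a log2 fold change with pairs of -0.36 (SE 0.082, edgeR adjusted p = 0.0991), and CCN2, a matricellular growth factor regulator, one of 0.70 (SE 0.24, adjusted p = 0.346).

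Among 16 tested collagen-modifying enzymes, P4HB, a subunit of collagen prolyl hydroxylase, and PPIB, a prolyl isomerase that helps collagen fold, stood at 774 ± 63.3 and 444 ± 69.6 TPM in PTX4-OE, against 777 ± 54.1 and 433 ± 63.3 TPM in EV. PLOD2, a lysyl hydroxylase, had a log2 fold change with pairs of 0.46 (SE 0.15), and LOXL3 one of -0.19 (SE 0.070). Among 23 tested matrix receptors, basigin (BSG), which induces MMPs in neighbouring cells, stood at 358 ± 55.5 TPM in PTX4-OE and 338 ± 49.7 TPM in EV. MRC2, a receptor that takes up collagen, stood at 157 ± 16.6 TPM in PTX4-OE and 154 ± 19.8 TPM in EV. The integrin chain ITGA9 and the syndecan SDC3 had log2 fold changes with pairs of 0.61 (SE 0.16, edgeR adjusted p = 0.197) and 0.23 (SE 0.059, adjusted p = 0.178). At an unadjusted p under 0.05 with pairs, 3 of the 23 receptors were higher, beside 4.36% of all genes, and 1 was lower, beside 4.43%. The lower one, named after its values were seen, was the integrin chain ITGB7, with -1.23 (SE 0.39, edgeR adjusted p = 0.312) at 0.26 ± 0.24 TPM in PTX4-OE and 0.56 ± 0.29 TPM in EV.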

How the data were processed

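RNA of 6 THP-1 libraries (3 PTX4-OE, 3 EV) was enriched with oligo(dT) beads, per the labels' protocols. FastQC 0.11.5, STAR, featureCounts and the GRCh38 (hg38) build are named in the submitters' processing notes; strandedness and the annotation release were not given in the sources used here. Expected counts (7.94% of values not whole), TPM and FPKM were deposited by the authors for 78686 rows. Here 35 pairs of rows for the shared ends of X and Y were summed, and symbols were assigned to 61428 of 78651 identifiers. Exon overlaps come from GENCODE release 44 and promoters from RefSeq (GRCh38.p14).

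Rounded expected counts entered edgeR 4.0.16 under R 4.3.3 (quasi-likelihood F test, TMM, filterByExpr with a minimum count of 10 and a total of 15), with Benjamini-Hochberg adjustment over 17625 genes and calls under 0.05. CPM values are TMM-normalised. Alternatives used DESeq2 1.42.0 and limma 3.58.1. Counting error alone is covered by the limits given for counts of 0.

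Deviations from the group means correlated between libraries of the same replicate number (r = 0.6321, 0.1303 and 0.6989 for numbers 1 to 3). Each was over the preset 0.1, so the numbers were taken to pair the libraries. PTX4-OE replicate 1 and EV replicate 2, of unlike number, also passed 0.1 (r = 0.1168), and the other unlike pairs were negative. The pairing therefore rests mainly on numbers 1 and 3, and is weak for number 2. The labels do not say what a number shares. The biological coefficient of variation was 0.217 without and 0.0551 with pairs.

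Per-library values are given for the 12 tested members with the highest TPM and those with an unadjusted p under 0.05 in either fit. The members and gene lists were chosen with earlier results of these data known.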

Additional observations from a re-analysis of the deposited data

How the results depend on the processing

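With the replicate block, 5 genes were higher and 42 lower, against 1 and 0 without it; it called none of the 30 members, and among the other matrix genes it called SERPINB2 (1 lower). With the block and mitochondrial genes left out, the counts were 5 higher and 41 lower, with 1 other matrix gene lower. DESeq2 called 1 higher and 2 lower, DESeq2 with the block 5 and 30, limma-voom 0 higher, no filter 1 lower, and log2(TPM + 0.1) 2 lower. Leaving out a library or a pair gave 1 to 41 genes higher and 0 to 167 lower, 0 to 1 members lower (PLAUR, with pairs and without the pair of replicate 3), and 0 to 1 other matrix genes higher and 0 to 2 lower. With pairs, leaving out pair 1, 2 or 3 gave 30, 8 or 41 genes higher and 58, 15 or 167 lower. No member passed in any other alternative run. The members' median log2 fold change was 0.015 with log2(TPM + 0.1) and ran from -0.092 to -0.0030 with a library or pair left out. Summed FPKM of the members was 460 in PTX4-OE and 485 in EV. The cause of these shifts was not tested.

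Of 570 member fold changes recomputed over 19 alternatives, 508 kept their sign. The sign of 8 members held in every alternative (ADAMTS1, TIMP2, PLAUR, FN1, FBN1, COL4A1, LAMB1, EMILIN2). All alternatives reuse the same 6 libraries, and the share of all genes whose sign held was not computed. Of the other 62 fold changes, 56 came from leaving out a library or pair. Otherwise signs turned for ADAMTSL4 (-0.0026) and COL6A2 (-0.0039) with limma-voom, COL6A2 (-0.00069) with DESeq2 and the block, and LOX with log2(TPM + 1) (0.020, also with the block) and log2(TPM + 0.1) (0.035). With a library or pair left out, log2 fold changes that changed sign ranged as follows. The range was MMP2 -0.12 to 0.15, MMP14 -0.086 to 0.0059, MMP19 -0.31 to 0.39, MMP25 -0.89 to 0.63, ADAM8 -0.12 to 0.31, ADAM9 -0.21 to 0.010, ADAM10 -0.019 to 0.11, ADAM15 -0.23 to 0.14, ADAM17 -0.065 to 0.078, ADAMTSL4 -0.27 to 0.32, TIMP1 -0.023 to 0.10. It was TIMP3 -0.22 to 0.020, PLAU -0.34 to 0.11, VCAN -0.13 to 0.079, COL1A1 -0.47 to 0.12, COL4A2 -0.19 to 0.53, COL6A1 -0.079 to 0.24, COL6A2 -0.27 to 0.23, LAMC1 -0.19 to 0.032, TGFBI -0.27 to 0.034, LOX -0.20 to 0.029, HSPG2 -0.12 to 0.37.

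Depth limits the low members: 30 passed the filter, 29 had 10 or more counts in every library, and 22 had a TPM of 1 or more in at least 3 libraries.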
